A study of Mus musculus with 8 samples.

Results

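Transcript levels of 10 genes that mark or direct the dendritic cell lineage, Flt3, Zbtb46, Irf8, Irf4, Batf3, Clec9a, Xcr1, Wdfy4, Dpp4 and Itgae, were followed in RNA from mouse liver cell preparations. The genes were taken by name from 32903 genes, and all 10 had at least 1 transcript in the tables. Bulk RNA-seq had been made from cells of wild-type mice that the labels call Kupffer cells, the macrophages that reside in the liver. The 5 naive libraries came from untreated mice, and the 3 CCl4 libraries from mice that received carbon tetrachloride in corn oil over 8 weeks, with 3 doses of 0.75 mL/kg in each week, a regimen that scars the liver. The labels give neither age, sex nor strain, nor do they mention corn oil for the naive mice, and they number the CCl4 libraries 1, 2-4 and 3 without saying whether 2-4 is a pool. Since no label states that each library is a separate animal, the p-values measure only the spread between these libraries, which may be technical. The comparison addressed how Kupffer cell preparations from fibrotic and naive livers differ.

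Dendritic cells take up antigen and present it to T cells. Conventional dendritic cells grow out of bone marrow precursors under the cytokine Flt3 ligand and separate into a type 1 branch, which depends on the transcription factors IRF8 and BATF3 and presents antigen from dead cells on MHC class I, and a type 2 branch, in which IRF4 acts and which presents mainly on MHC class II. In the liver they lie around the portal tracts and along the sinusoids, close to the Kupffer cells, and several of the genes are also used by monocyte-derived cells, lymphocytes or endothelium.

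Levels were given as TPM, an abundance scaled to transcript length and to the library's total. The scale carries no read numbers, and the depth of the libraries is unknown. A library held 14059 to 15063 genes at 1 TPM or more. Naive replicate 5 stood apart from the other naive libraries: it correlated with them at 0.943 to 0.951 (Pearson's r of log2 values across genes, which are not independent replicates), while its correlations with the CCl4 libraries were the highest of any naive library, from 0.878 to 0.888. It was the highest naive library for 7 of the 10 genes and the lowest for 2. CCl4 replicate 2-4 was the highest CCl4 library for 9 of the 10, though for Irf8 it nearly tied with CCl4 replicate 1 (171.9 against 171.8 TPM). The mean of the defining Kupffer cell lectin, Clec4f, dropped from 1397 to 77.7 TPM, and 9 of 10 resident Kupffer cell markers fell, Cd5l by 3.13. These 10 markers summed to 2769 to 5582 TPM in naive and 431 to 647 TPM in CCl4 libraries. A list of 14 endothelial markers summed to more than them in every naive library, at 7079 to 13327 TPM. The naive preparations thus held endothelial RNA beside that of Kupffer cells, and the share of each cell type was not tested. The structural RNAs Rn7s1 and Rn7s2 held 27.5 to 41.3% of a library's TPM, most in naive replicate 5. In bulk RNA, fewer cells of a type and less RNA per cell cannot be told apart.

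The lineage genes did not move as one. By limma, a linear model fitted to all genes on log2(TPM + 1), 4 of the 10 were higher in the CCl4 libraries (Flt3, Irf4, Wdfy4 and, narrowly, Batf3) and 3 were lower (Dpp4, Clec9a and Zbtb46), at an adjusted p under 0.05. Irf8, Itgae and Xcr1 did not pass. All 10 had passed the filter of 1 TPM in 3 libraries. Of 15629 genes tested, 15.3% were called higher and 22.5% lower, 37.8% in all, which is the background for the 4 and 3 of 10 lineage genes. For 3 of the 10 every CCl4 library was above every naive one and for 3 below, as for 16.3% and 20.6% of all tested genes (36.9% in all). With quantile normalization the split over all genes turned from 2393 higher and 3513 lower to 4011 and 3086, while 4 lineage genes were still higher and 3 lower. Rescaling to protein-coding genes moved it the other way, to 2372 higher and 4463 lower of 17609 tested, with 3 lineage genes higher and 3 lower. Without naive replicate 5, 6 of the 10 were called higher and 3 lower, with Irf8 and Itgae added.

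**Figure D1:**
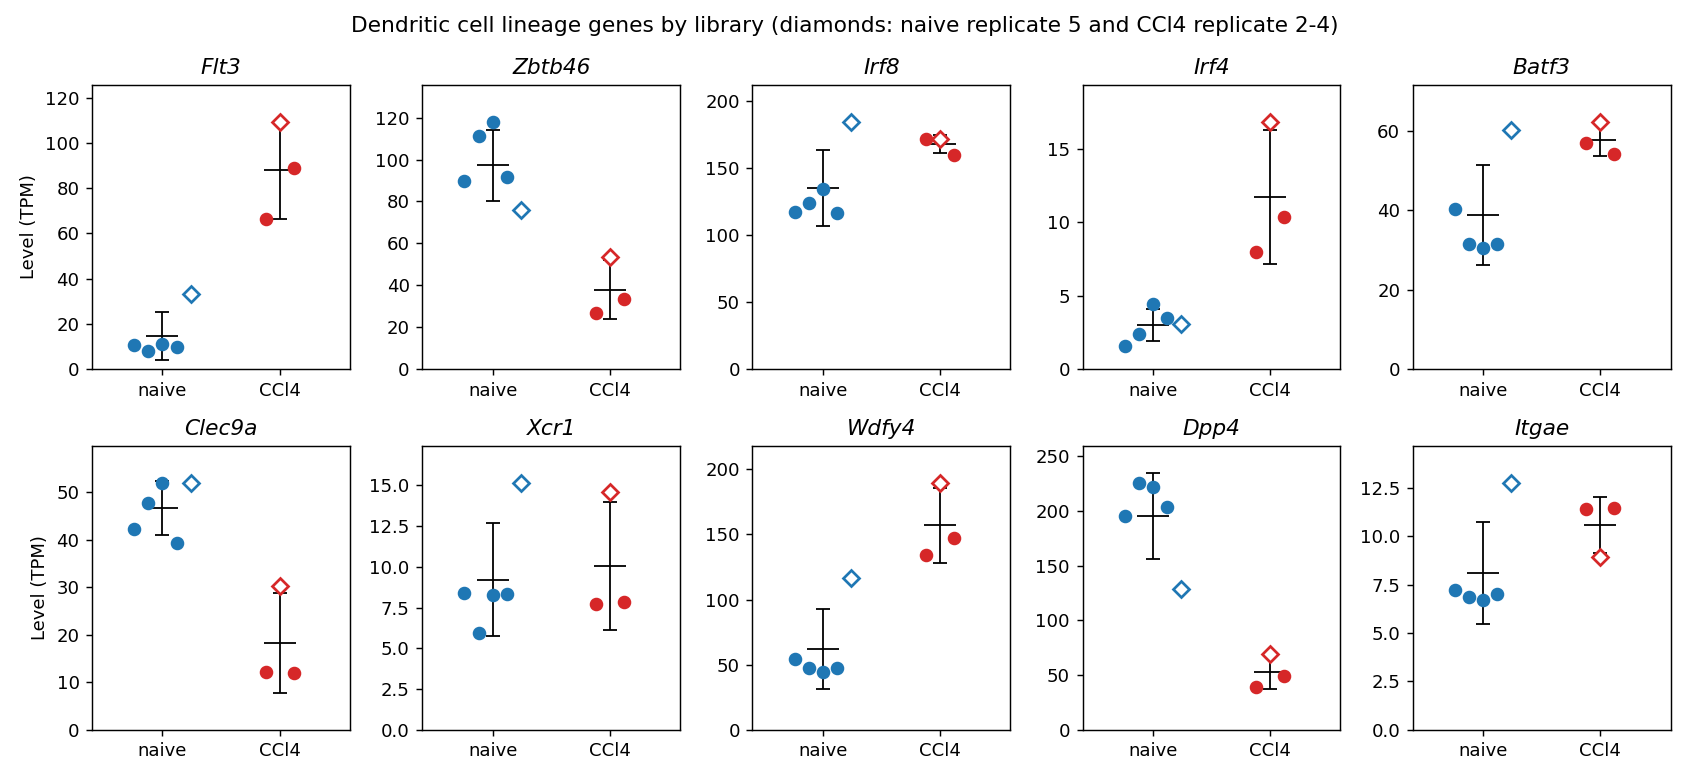
Level in TPM of the 10 lineage genes in each library, with naive libraries in blue and CCl4 libraries in red, diamonds for naive replicate 5 and CCl4 replicate 2-4, and bars for the mean ± SD. Flt3, Irf4 and Wdfy4 are higher and Zbtb46, Clec9a and Dpp4 lower in every CCl4 library than in every naive library, while naive replicate 5 lies among the CCl4 libraries for Batf3, at 60.3 TPM, and at or above them for Irf8, Xcr1 and Itgae.

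Flt3, the receptor tyrosine kinase for Flt3 ligand on dendritic cell precursors and conventional dendritic cells (GRCm38 chromosome 5, 147330741 to 147400489), had the largest rise of the 10. Its level was 10.4, 8.13, 10.9, 9.52 and 33.2 TPM in naive replicates 1 to 5, and 66.2, 109.3 and 88.8 TPM in CCl4 replicates 1, 2-4 and 3. Every CCl4 library was above every naive one, and naive replicate 5 lay between the other naive libraries and the CCl4 libraries. The mean went from 14.4 ± 10.6 TPM (SD, n = 5) to 88.1 ± 21.6 TPM (SD, n = 3), a log2 fold change of 2.69 (SE 0.379, limma adjusted p = 0.000259). All 3 Flt3 transcripts in the tables rose (XM_006504804 lost its call with no filter on low values, limma adjusted p = 0.0501), led by NM_010229, which held 76.4% of the gene's TPM in naive and 76.8% in CCl4 libraries on average. The gene for its ligand, Flt3l, which stromal cells and lymphocytes make, fell by 0.75 (SE 0.170, limma adjusted p = 0.00523).

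Zbtb46, a zinc finger transcription factor of conventional dendritic cells that endothelium also expresses (chromosome 2, 181371009 to 181493262), went the other way. It stood at 89.8, 111.0, 118.0, 91.6 and 75.8 TPM in naive replicates 1 to 5, and at 26.7, 53.6 and 33.4 TPM in CCl4 replicates 1, 2-4 and 3. The groups did not overlap, and naive replicate 5 was the lowest naive library. Its log2 fold change was -1.38 (SE 0.222, limma adjusted p = 0.000655). Of its 10 transcripts 8 were tested and 5 fell, while XM_006500714 had a mean of 4.71 ± 1.06 TPM (SD, n = 5) in naive and of 4.90 ± 1.11 TPM (SD, n = 3) in CCl4 libraries. Genes whose spans overlap that of Zbtb46 include Zgpat (33.8 to 45.8 TPM over the libraries), Lime1 (19.0 to 32.5 TPM) and the pseudogene Slc2a4rg-ps (3.99 to 11.1 TPM). Lime1 and Slc2a4rg-ps were lower in every CCl4 library than in every naive one. Whether their reads were told apart from those of Zbtb46 was not tested. Beside Zbtb46, all 14 endothelial markers fell, the median of their log2 fold changes being -4.48 (Clec4g, a lectin of liver sinusoidal endothelium, by 4.74, and the water channel Aqp1 by 4.11) and a summed level of 7079 to 13327 TPM in naive and 276 to 726 TPM in CCl4 libraries. Naive replicate 5 held the lowest and naive replicate 3 the highest endothelial sum of the naive group, as for Zbtb46, and CCl4 replicate 2-4 the highest of the CCl4 group, again as for Zbtb46. The part of endothelial RNA in the level of Zbtb46 was not tested.

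Irf8, the transcription factor that type 1 dendritic cells and monocytes need (chromosome 8, 120736358 to 120756694), was the most abundant of the 10 in the CCl4 libraries. It was at 117, 124, 134, 116 and 184 TPM in naive replicates 1 to 5, and at 172, 172 and 160 TPM in CCl4 replicates 1, 2-4 and 3. Naive replicate 5 was above all CCl4 libraries and the other 4 naive libraries were below them. The log2 fold change was 0.33 (SE 0.164, limma adjusted p = 0.14), and without naive replicate 5 it was 0.45 (limma adjusted p = 0.0131, the lowest of a range up to 0.333 over 18 alternatives).

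The gene total covered 2 transcripts, of which 1 was called. NM_008320 starts at the upstream start site and NM_001301811 at one 2281 bases downstream, in GENCODE's models, and 7 of their 9 exons are identical. The first exon of NM_001301811, at 120738639 to 120739226, lies inside the first intron of NM_008320, and its last exon ends 1113 bases earlier. NM_008320 was at 99.4, 105.5, 115.3, 98.6 and 168.5 TPM in naive replicates 1 to 5 and at 160.4, 157.4 and 148.8 TPM in CCl4 replicates 1, 2-4 and 3, a log2 fold change of 0.43 (SE 0.184, limma adjusted p = 0.143 over all transcripts). NM_001301811 was at 17.9, 18.4, 18.7, 17.7 and 15.9 TPM and at 11.5, 14.5 and 11.0 TPM, and fell by 0.50 (SE 0.150, limma adjusted p = 0.0481 over all transcripts), without overlap between the groups. The share of Irf8 TPM in NM_001301811 was 15.3%, 14.8%, 14.0%, 15.2% and 8.62% in the naive libraries and 6.67%, 8.41% and 6.89% in the CCl4 libraries. It averaged 13.6% ± 2.82 (SD, n = 5) and 7.32% ± 0.947 (SD, n = 3). This share was chosen after its values were seen, among 7 lineage genes with more than 1 transcript, so it is a description with no test. Naive replicate 5, at 8.62%, was within 1 percentage point of CCl4 replicate 2-4. With 1 library left out the difference of -6.25 percentage points ranged from -7.49, without naive replicate 5, to -5.83.

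**Figure D2:**
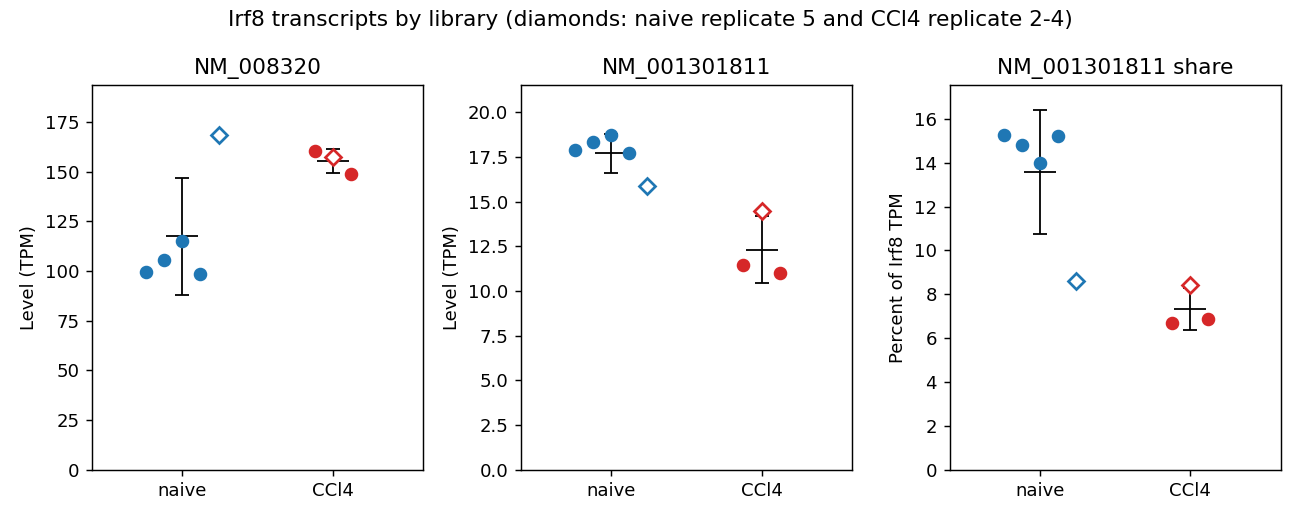
Level in TPM of the Irf8 transcripts NM_008320 and NM_001301811, and the percent of Irf8 TPM in NM_001301811, in each library, with bars for the mean ± SD. NM_001301811 is lower in all 3 CCl4 libraries (11.0 to 14.5 TPM) than in all 5 naive ones (15.9 to 18.7 TPM), and naive replicate 5, a diamond, has a share of 8.62%, next to the 8.41% of CCl4 replicate 2-4.

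The 250 bases before the Irf8 start sites are shown because the transcript taken to begin at the downstream one was called lower while the gene total was not called. Those before Flt3 and Dpp4, the genes with the largest rise and the largest fall of the 10, are shown beside them. Sequences are from RefSeq on GRCm38.p6, each 5′ to 3′ on the gene's strand. Capitals mark matches to 6 motifs searched in all 10 promoter windows of the lineage genes but Itgae: the interferon-gamma activation site TTCNNNGAA, the interferon response repeat (GAAA, any 2 bases, GAAA), the ETS-IRF composite (GGAA, any 2 bases, GAAA), the AP-1 site TGANTCA and the CCAAT box, each on both strands, and TATAAA on the gene's strand alone. The windows are chr8:120736108-120736357 (+ strand) for Irf8 upstream, chr8:120738389-120738638 (+ strand) for Irf8 downstream, chr5:147400490-147400739 (- strand) for Flt3 and chr2:62412232-62412481 (- strand) for Dpp4.
Irf8 upstream start: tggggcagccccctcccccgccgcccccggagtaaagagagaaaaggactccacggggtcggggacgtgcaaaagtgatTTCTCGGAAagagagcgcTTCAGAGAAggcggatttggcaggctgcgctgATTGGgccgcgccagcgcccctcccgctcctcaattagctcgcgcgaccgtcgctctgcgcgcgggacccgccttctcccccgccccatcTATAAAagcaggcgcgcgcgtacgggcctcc
Irf8 downstream start: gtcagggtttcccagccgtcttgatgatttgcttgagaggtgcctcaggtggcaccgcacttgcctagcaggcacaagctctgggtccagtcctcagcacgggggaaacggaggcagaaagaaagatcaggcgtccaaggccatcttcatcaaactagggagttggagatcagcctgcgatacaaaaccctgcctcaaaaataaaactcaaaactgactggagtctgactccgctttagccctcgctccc
Flt3: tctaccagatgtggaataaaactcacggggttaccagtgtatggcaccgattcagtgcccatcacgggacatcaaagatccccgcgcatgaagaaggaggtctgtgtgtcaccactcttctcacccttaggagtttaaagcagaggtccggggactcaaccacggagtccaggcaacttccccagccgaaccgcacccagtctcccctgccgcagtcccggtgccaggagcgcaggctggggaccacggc
Dpp4: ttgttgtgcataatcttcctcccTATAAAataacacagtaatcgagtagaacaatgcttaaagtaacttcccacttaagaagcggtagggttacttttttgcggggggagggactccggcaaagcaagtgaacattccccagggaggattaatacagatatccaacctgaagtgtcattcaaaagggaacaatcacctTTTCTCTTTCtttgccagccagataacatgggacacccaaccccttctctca

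The upstream Irf8 window held 2 matches to TTCNNNGAA, beginning 171 and 153 bases before the start, a CCAAT box on the other strand and TATAAA 31 bases before the start. Its G+C content was 67.2%. None of the 6 motifs was found in the downstream Irf8 window, whose G+C content was 54.0%. The Flt3 window also held none, and the Dpp4 window held 1 interferon response repeat 52 bases and TATAAA 227 bases before the start. In the windows of the other lineage genes, TTCNNNGAA was found once for Batf3, TGANTCA once for Zbtb46, TATAAA once for Irf4 and CCAAT once each for Xcr1 and Wdfy4. The Zbtb46 window (chr2:181424389-181424638) and the Wdfy4 window (chr14:33185067-33185316) lie inside the spans of their genes. Each thus precedes an internal start and not the gene's outer end. The Dpp4 window lies partly inside the span of its gene, which ends at 62412315, and its interferon response repeat is in that part. Of 32851 mouse promoter windows of the same length, 7.02% held TTCNNNGAA, 2.98% the interferon response repeat, 2.30% the ETS-IRF composite, 6.75% TGANTCA, 7.59% TATAAA and 33.8% CCAAT. The matches describe these letters and do not show binding.

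Irf4, the interferon regulatory factor of type 2 dendritic cells, activated lymphocytes and plasma cells (chromosome 13, 30749233 to 30766981), was the least abundant of the 10 in naive libraries and rose. It was at 1.54, 2.36, 4.45, 3.46 and 3.08 TPM in naive replicates 1 to 5, and at 7.99, 16.8 and 10.4 TPM in CCl4 replicates 1, 2-4 and 3. The groups did not overlap, and naive replicate 5 was in the middle of its group. The log2 fold change was 1.67 (SE 0.284, limma adjusted p = 0.00093), and it was 1.04 with a pseudocount of 5. Of its 2 RefSeq transcripts 1, NM_013674, was in the tables. Of the B cell markers beside it, 3 of 9 tested were lower by limma and the other 6 did not pass, and their summed level was 117 to 189 TPM in naive and 76.4 to 178 TPM in CCl4 libraries, highest of the CCl4 group in replicate 2-4, as for Irf4. Of 5 tested plasma cell markers 2 rose, Jchain, the joining chain of secreted antibody, by 1.06 (SE 0.378, limma adjusted p = 0.0478) and Prdm1, a transcription factor of plasma cells that macrophages also express, by 0.79 (limma adjusted p = 0.00207, a gene picked for naming after its values were seen). Xbp1, Mzb1 and Sdc1 did not pass, at -0.36, -0.32 and -0.25, and the median of the 5 was -0.25. Mzb1 and Sdc1 are named to complete the list. The plasma cell sum was 89.4 to 134 TPM in naive and 104 to 115 TPM in CCl4 libraries. Most of it was Xbp1, at 62.1 to 108 TPM over the libraries. The share of Irf4 from B or plasma cells was not tested.

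Batf3, a leucine zipper partner of IRF8 in type 1 dendritic cells (chromosome 1, 191098414 to 191108943), passed the test narrowly. It was at 40.5, 31.6, 30.5, 31.5 and 60.3 TPM in naive replicates 1 to 5, and at 57.0, 62.3 and 54.1 TPM in CCl4 replicates 1, 2-4 and 3. Naive replicate 5 was within the range of the CCl4 libraries and the other 4 naive libraries were below it. The log2 fold change was 0.61 (SE 0.215, limma adjusted p = 0.046). The call was lost without any 1 of the other 7 libraries (adjusted p from 0.0645 without naive replicate 1 to 0.13 without CCl4 replicate 2-4), and it held at 0.78 when naive replicate 5 was left out (limma adjusted p = 0.00137, the lowest over the alternatives). It was also lost after rescaling to protein-coding genes (adjusted p = 0.114).

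Clec9a, the receptor with which type 1 dendritic cells recognise actin of dead cells (chromosome 6, 129408862 to 129424764), fell. It was at 42.2, 47.7, 51.9, 39.4 and 52.0 TPM in naive replicates 1 to 5, and at 12.1, 30.4 and 12.0 TPM in CCl4 replicates 1, 2-4 and 3. The groups did not overlap, and CCl4 replicate 2-4 lay between the other CCl4 libraries and the naive ones. The mean went from 46.7 ± 5.69 TPM (SD, n = 5) to 18.2 ± 10.6 TPM (SD, n = 3), a log2 fold change of -1.44 (SE 0.268, limma adjusted p = 0.00167). Of its 4 transcripts only NM_001205363, which held 61.1% of Clec9a TPM in naive and 82.5% in CCl4 libraries on average, was called on its own, at -1.002 (SE 0.253, limma adjusted p = 0.0239 over all transcripts, and 0.067 with no filter). Clec12b, a lectin gene whose RefSeq span overlaps that of Clec9a, was at 0.503 to 1.59 TPM in naive and 0.0658 to 0.322 TPM in CCl4 libraries, so it too was lower in every CCl4 library.

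Xcr1, the chemokine receptor that brings type 1 dendritic cells to XCL1-secreting lymphocytes (chromosome 9, 123852315 to 123862029), did not follow Clec9a. It was at 8.40, 5.91, 8.30, 8.34 and 15.2 TPM in naive replicates 1 to 5, and at 7.72, 14.6 and 7.84 TPM in CCl4 replicates 1, 2-4 and 3. The groups overlapped throughout, with 1 high library in each, naive replicate 5 and CCl4 replicate 2-4. The log2 fold change was 0.12 (SE 0.283, limma adjusted p = 0.782), and over the alternatives it ranged from -0.16 to 0.33, so its sign was not fixed. Clec9a stood at 3.43 to 8.08 times the TPM of Xcr1 in naive libraries and at 1.54 to 2.08 times in CCl4 libraries, without overlap. This ratio is a description with no test, and the share of other gene pairs without overlap was not computed.

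Wdfy4, a BEACH domain protein that type 1 dendritic cells need to cross-present cell-bound antigen (chromosome 14, 32959547 to 33193855), rose. It was at 54.3, 47.6, 44.4, 47.1 and 116.6 TPM in naive replicates 1 to 5, and at 134.6, 189.8 and 147.0 TPM in CCl4 replicates 1, 2-4 and 3. Naive replicate 5 came close to the lowest CCl4 library, and the other 4 naive libraries were far below. The mean went from 62.0 ± 30.7 TPM (SD, n = 5) to 157.1 ± 29.0 TPM (SD, n = 3), a log2 fold change of 1.42 (SE 0.289, limma adjusted p = 0.00294). XM_006519277 held 67.4% of the gene's TPM in naive and 73.7% in CCl4 libraries, and it was called higher on its own (1.55, SE 0.372, limma adjusted p = 0.0192 over all transcripts, and 0.0723 with no filter). Lrrc18, a gene whose span overlaps that of Wdfy4, had 3.08 to 7.82 TPM in naive and 8.69 to 16.1 TPM in CCl4 libraries. Like Wdfy4 it was highest among naive libraries in replicate 5 and among CCl4 libraries in replicate 2-4. The library kit keeps strand, but whether the quantification used it is not given in the sources used here, so reads of overlapping genes may not have been told apart.

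Dpp4, the surface peptidase CD26 of conventional dendritic cells, T cells and several epithelia and endothelia (chromosome 2, 62330073 to 62412315), had the largest fall of the 10. It was at 195.6, 225.8, 222.3, 203.6 and 128.6 TPM in naive replicates 1 to 5, and at 38.9, 69.4 and 49.3 TPM in CCl4 replicates 1, 2-4 and 3. The groups did not overlap, and naive replicate 5 was the lowest naive library. The log2 fold change was -1.89 (SE 0.225, limma adjusted p = 8.23e-05). All 6 of its transcripts fell, from -0.63 for the noncoding XR_001780739 (lost with no filter, limma adjusted p = 0.0519) to -2.34 for NM_010074. The 14 endothelial markers fell beside it, and as for Dpp4 their sum was lowest among naive libraries in replicate 5 (7079 TPM) and highest among CCl4 libraries in replicate 2-4 (726 TPM). The highest naive library differed, replicate 3 for the sum (13327 TPM) and replicate 2 for Dpp4. T, NK and ILC1 markers, which include T cells that carry CD26, fell in 5 of 12 cases and did not pass in the other 7, with a sum of 213 to 281 TPM in naive and 87.1 to 295 TPM in CCl4 libraries. The part of endothelium or T cells in the level of Dpp4 was not tested.

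Itgae, the integrin chain CD103 of type 1 dendritic cells and tissue-resident T cells (chromosome 11, 73090505 to 73147449), was low in both groups. It was at 7.21, 6.85, 6.70, 6.99 and 12.8 TPM in naive replicates 1 to 5, and at 11.4, 8.92 and 11.5 TPM in CCl4 replicates 1, 2-4 and 3. Naive replicate 5 was above all CCl4 libraries, and the other 4 naive libraries were below them. The log2 fold change was 0.38 (SE 0.215, limma adjusted p = 0.194), and without naive replicate 5 it was 0.54 (limma adjusted p = 0.0138, the lowest of a range up to 0.379 over the alternatives). Haspin, a mitotic kinase gene whose span overlaps that of Itgae, was at 5.98 to 7.42 TPM in naive and 4.56 to 5.36 TPM in CCl4 libraries.

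**Figure D3:**
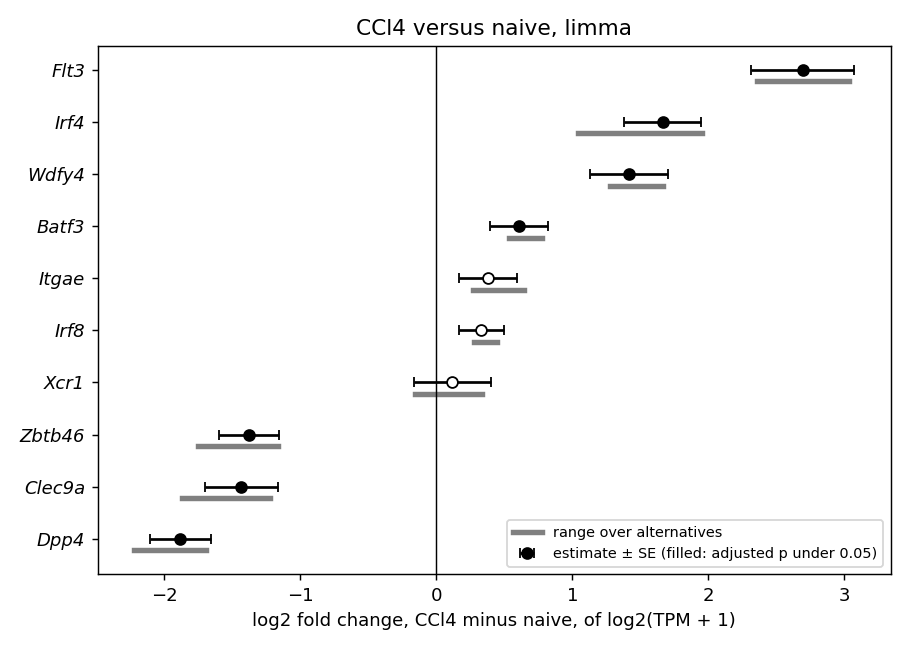
Log2 fold change (CCl4 minus naive, on log2(TPM + 1)) of the 10 lineage genes by limma, with bars for the SE, filled points for an adjusted p under 0.05 and grey lines for the range over 18 alternatives. Flt3, at 2.69, and Dpp4, at -1.89, mark the ends, and the range of Xcr1 alone crosses 0.

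Over the transcripts, 33 of the 36 in the tables were tested, and limma called 5 higher and 13 lower, against 7.56% and 11.4% of all 35637 transcripts tested, or 19% in either direction. Transcripts of a gene share reads that kallisto divides between them, so these are not independent counts. The order of the genes by level also differed between the groups. In naive libraries it ran from Dpp4 (195 TPM) through Irf8, Zbtb46, Wdfy4, Clec9a, Batf3, Flt3, Xcr1 and Itgae to Irf4 (2.98 TPM), and the only neighbours in that order whose ranges did not overlap were Itgae and Irf4. In CCl4 libraries it ran from Irf8 (168 TPM) through Wdfy4, Flt3, Batf3, Dpp4, Zbtb46, Clec9a, Irf4 and Itgae to Xcr1 (10.1 TPM), and the neighbours without overlap were Wdfy4 and Flt3, and Flt3 and Batf3. The TPM of Flt3 was 0.0732 to 0.438 times that of Zbtb46 in naive and 2.04 to 2.66 times in CCl4 libraries. Irf8 was 30.1 to 76.2 times Irf4 in naive and 10.2 to 21.5 times in CCl4 libraries. Neither ratio was tested. That of Flt3 to Zbtb46 had to separate the groups, since Flt3 was higher and Zbtb46 lower in every CCl4 library than in every naive one.

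The profiles nearest to Flt3 over the 8 libraries, by the root mean square difference of mean-centred log2(TPM + 1), were those of the MHC class II beta chain gene H2-Ab1 (0.175), of Srgap3 (0.180), and of H2-Eb1, another class II beta chain (0.181). Like Flt3, H2-Ab1 was higher in naive replicate 5, at 2307 TPM, than in the other naive libraries, at 554 to 658 TPM, and at 4449 to 5497 TPM in CCl4 libraries. The profiles nearest to Zbtb46 were those of Cish (0.0902), an inhibitor of cytokine signalling, of 4931428F04Rik (0.0960) and of Gabbr1 (0.107), a subunit of the GABA type B receptor. These 3 were lowest among naive libraries in replicate 5 and highest among CCl4 libraries in replicate 2-4, as Zbtb46 was.

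Of 14 other type 1 genes, 4 rose and 1 fell, where 15.3% of all tested genes were called higher and 22.5% lower (37.8% in all). The type 1 calls in both directions together are near that background. The median log2 fold change of the 14 was 0.42, and -0.06 over all tested genes. Those that rose were Nfil3 (1.63), a transcription factor upstream of the branch, Rab7b (1.16), the inhibitory receptor Btla (0.91) and Id2 (0.86), an inhibitor of E proteins that is also used by other leukocytes, and the one that fell was Tlr3, the receptor for double-stranded RNA, at -1.44 (limma adjusted p = 0.0406). Nfil3, Rab7b, Btla and Tlr3 were picked for naming after their values were seen. The abundant type 1 genes Ppt1, Naaa and Cadm1 did not pass, at 0.26, 0.74 and 0.70 (limma adjusted p = 0.18, 0.0852 and 0.0581). Without naive replicate 5, 7 of the 14 were called higher, and the call of Tlr3 was lost in at least 9 of 18 alternatives.

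Of 12 type 2 genes 8 rose and 1 fell (15.3% and 22.5% of all tested genes), with a median of 0.98. Whether the branches differed was not tested. Sirpa, an inhibitory receptor of myeloid cells, rose from 173.9 to 320.3 TPM (log2 fold change 0.86), Klf4, a transcription factor of type 2 dendritic cells and monocytes, by 0.62, and the lectin Cd209a by 5.77. Esam, an adhesion molecule of a splenic type 2 subset and of endothelium, fell by 4.19 (SE 0.276, limma adjusted p = 1.99e-06), beside the endothelial markers. Monocytes and macrophages also express several of these genes. Of 10 monocyte genes 5 rose and 1 fell, their sum was 689 to 1381 TPM in naive and 2634 to 5957 TPM in CCl4 libraries, and Ccr2, the receptor that guides monocytes from the bone marrow, rose by 3.79 and the lysozyme Lyz2 by 1.84. The part of monocyte-derived cells in these levels was not tested.

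Among 14 general dendritic cell and precursor genes 11 rose and 2 fell (15.3% and 22.5% of all tested genes), with a median of 1.23. Spi1, which encodes PU.1, rose by 0.87, Cebpa by 1.62 and Csf2ra, the GM-CSF receptor alpha chain, by 1.57, and all are shared with monocytes and macrophages. The 2 that fell were Flt3l and Kit, the stem cell factor receptor, at -2.15 (Kit was picked for naming after its values were seen). Kit too was highest among naive libraries in replicate 3, lowest in replicate 5 and highest among CCl4 libraries in replicate 2-4, as the endothelial sum was. All 9 MHC class II presentation genes rose, with a median of 2.38, and the most abundant, the invariant chain Cd74, went from 1967 to 8994 TPM on average. Their sum was 21414 to 23912 TPM in CCl4 libraries, 10519 TPM in naive replicate 5 and 2922 to 3305 TPM in the other naive libraries, so naive replicate 5 was high in MHC class II as in Flt3 and Wdfy4.

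Of 14 genes of mature, migrating dendritic cells 3 were called higher and 4 lower, with a median of 0.35. Of all tested genes 15.3% were higher and 22.5% lower, so these shares are near the background. The number higher was 7 with quantile normalization and 5 without naive replicate 5 or without CCl4 replicate 3. Cd83, a maturation marker, rose by 1.77, while Fscn1, an actin-bundling protein, fell by 2.18 and Marcksl1 by 1.55. The endothelial markers fell beside them, and like their sum Fscn1 had its highest naive level in replicate 3 (141 TPM), its lowest in replicate 5 (78.7 TPM, as in replicate 1) and its highest CCl4 level in replicate 2-4 (30.6 TPM). The part of endothelial RNA in these levels was not tested. Tmem123 did not pass, at 0.34 (limma adjusted p = 0.122). Ccr7, the homing receptor of migrating dendritic cells, also did not, at 0.45 (limma adjusted p = 0.165), and it was picked for naming after its values were seen. Of 12 plasmacytoid dendritic cell genes 2 rose and 4 fell, with a median of -0.20, shares that are also near the background. Bst2, Tcf4 and Il3ra fell by 0.98, 0.87 and 1.33, and Ly6d did not pass, at -0.61 (limma adjusted p = 0.122). Siglech, the defining surface lectin of these cells, was at 1.74 to 4.26 TPM over the libraries.

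**Figure D4:**
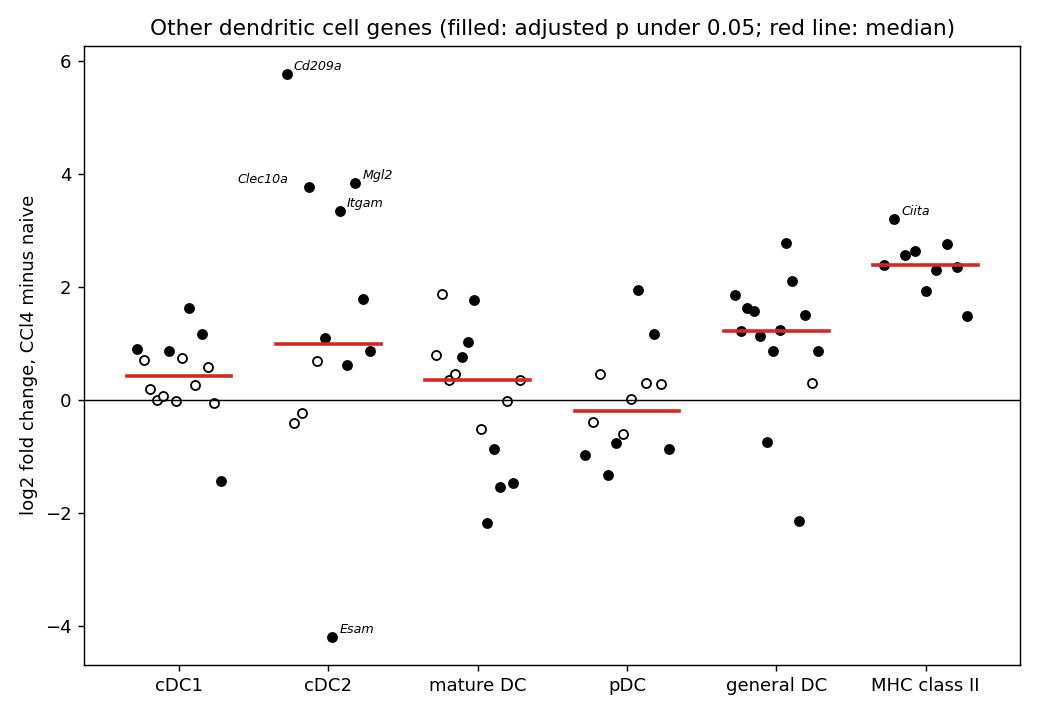
Log2 fold change (CCl4 minus naive) of each gene of 6 dendritic cell lists by limma, with filled points for an adjusted p under 0.05 and a red line for the list's median. The medians run from -0.20 for plasmacytoid genes to 2.38 for MHC class II genes, and Esam and Cd209a, at -4.19 and 5.77, are the ends of the type 2 list.

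Markers of other cells that the preparations could hold were present at different levels. Hepatocyte markers summed to 965 to 1943 TPM in naive and 474 to 1341 TPM in CCl4 libraries, with 4 of 8 lower and the other 4 not past the test. Albumin, Alb, went from 509 to 274 TPM on average and did not pass (-1.16, limma adjusted p = 0.0561). Of 8 neutrophil markers 3 were tested, and Ly6g was listed at 0 in all 8 libraries. Csf3r, the G-CSF receptor, which monocytes also express, held most of the list's sum and rose, from 11.9 to 18.9 TPM in naive to 21.6 to 40.4 TPM in CCl4 libraries, and S100a9 fell. Of 7 bile duct markers 6 were tested and 0 were called by limma, with 0 also at an unadjusted p under 0.05, and Cftr was listed at 0 in all libraries. CCl4 replicate 2-4 held the highest sums of endothelial, B cell and T, NK and ILC1 markers of its group, at 726, 178 and 295 TPM. It was also the highest of its group for 9 of the 10 lineage genes, with Irf8 nearly tied with CCl4 replicate 1.

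**Figure D5:**
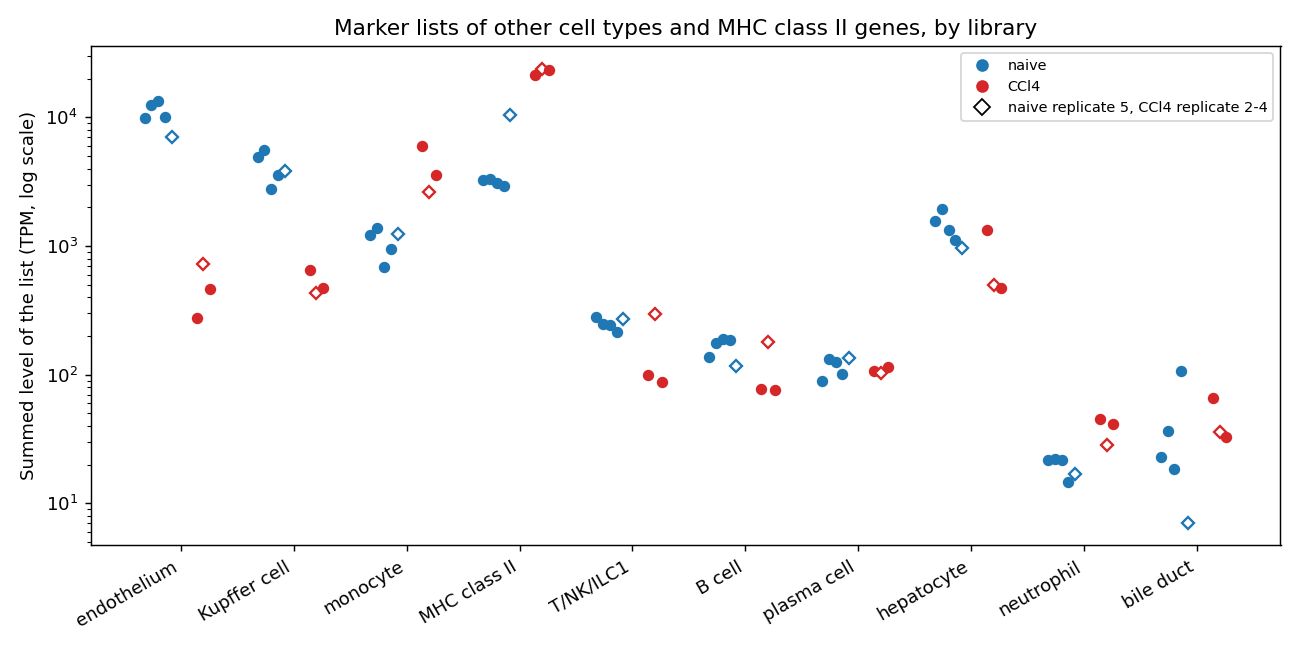
Summed level in TPM, on a log axis, of each marker list and of the MHC class II genes in each library, with naive libraries in blue, CCl4 libraries in red and diamonds for naive replicate 5 and CCl4 replicate 2-4. The endothelial sum lies between 7079 and 13327 TPM in naive and between 276 and 726 TPM in CCl4 libraries, and the MHC class II sum of naive replicate 5 lies between the groups.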

How the data were processed

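Each library was deposited by the authors as TPM of RefSeq transcripts (per the file headers), made with kallisto 0.42.4 and the build GRCm38, per the submitters' processing notes. The libraries were made from total RNA with a directional kit, per the labels' protocols. The index, read trimming, cell isolation, read depth and any batch were not stated in the labels or notes. Of 107384 transcripts, 86722 were matched to a gene by accession without version (46184 with it) and summed to 32903 genes. The unmatched transcripts held 6.06 to 7.58% of a library's TPM and were left out.

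Genes with at least 1 TPM in 3 libraries were tested, 5 naive against 3 CCl4 libraries, with limma 3.58.1 in R 4.3.3 on log2(TPM + 1), with an intensity trend and Benjamini-Hochberg adjustment over all genes (threshold 0.05). Fold changes on this scale understate those of low genes. Transcripts were fitted in the same way. The transcript share was computed in Python 3.11.15 and not tested. The fitting script was tested on simulated data. Alternatives covered the pseudocount, filter, scaling, trend, library weights, replicate block and each library left out.

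The members and lists were chosen with earlier results of these data known. Named by rule were the 10 members, the 4 most abundant genes of each dendritic cell list, the 2 most abundant of each other list and the 3 profiles nearest to Flt3 and to Zbtb46. Some genes under this rule are named only here. H2-Aa rose by 2.56. Those that did not pass were Cd79b (-0.20), Cd79a (-0.65), Gzma (-1.05), Il2rb (-0.61), Trf (-0.63), Spp1 (0.84) and Krt7 (0.44). The Irf8 transcript share and its leave-outs were added after seeing the data.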

Additional observations from a re-analysis of the deposited data

Results flagged for a closer look

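Naive replicate 5 lay far from the other 4 naive libraries for 5 of the 10 lineage genes, each time on the high side. The measure was the gap to the nearest library divided by the range of the group, with a critical value of 0.71 for 5 libraries (Dixon's 95% value). It was 0.89 for Flt3, 0.731 for Xcr1, 0.864 for Wdfy4, 0.74 for Irf8 and 0.916 for Itgae. For the Irf8 transcript NM_008320 it was 0.762, again high, and for the percent of Irf8 TPM in NM_001301811 it was 0.806, on the low side. These are 7 of 13 values checked. The critical value is set for about 1 in 20 single groups, which is no background for a library that departs over many genes. The share of all tested genes past it was not computed, so the count is a description. The 7 values all rest on 1 library and are not independent of each other. The same library had the highest MHC class II sum of the naive group, at 10519 TPM, and the lowest endothelial sum, at 7079 TPM. The part of these in the lineage genes' levels was not tested.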

How the results depend on the processing

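Direction and side of the threshold were kept in all 18 alternatives by Flt3, Zbtb46, Clec9a, Wdfy4, Irf4 and Dpp4. Xcr1 was never called, and its log2 fold change was 0.12 and turned negative under the replicate block (-0.090), without naive replicate 2 (-0.01) and without CCl4 replicate 2-4 (-0.16). With 1 library left out it ranged from -0.16 to 0.30. The call of Batf3 was lost in 13 of 18 (limma adjusted p up to 0.13), and Irf8 and Itgae were called in 2 each, with library weights (adjusted p = 0.0306 and 0.032) and without naive replicate 5. Leaving out 1 library gave 3 to 6 lineage genes higher and 3 lower, and over all genes 1882 to 2568 higher and 2580 to 4170 lower. Quantile normalization gave 4011 genes higher and 3086 lower, against 2393 and 3513, and moved the median log2 fold change of all genes from -0.06 to 0.11. Rescaling to protein-coding genes gave 2372 higher and 4463 lower and a median of -0.11. The cause of these opposite shifts was not tested. Type 1 genes called higher ranged from 3 to 7, with 7 also under library weights. The labels number libraries 1 and 3 in both groups without stating a pairing, and the deviations of same-numbered libraries from their group means correlated at 0.0772 and -0.0414. A fit with the replicate number as a block, which leaves 1 residual degree of freedom, gave 1874 genes higher and 3438 lower, with 3 lineage genes higher and 3 lower and Batf3 at 0.65 (adjusted p = 0.0851). Of the general dendritic cell genes it called 1 lower in place of 2. TPM give no depth, so the precision of low levels such as those of Irf4 could not be stated.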
